A study of Macaca mulatta with 8 samples.

Results

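The genes described here encode 2 secreted proteins, a cell surface receptor, 2 enzymes of the secretory pathway and a membrane protein: STC1, BDKRB1, NPTX2, LARGE2, TMEM26 and MPPE1. They were selected on the signals of these same 8 arrays, because 1 probe set of each had been called higher in rhesus macaque oocytes matured in culture, so their difference between the groups is given as a description, with no test. A gene was represented by every probe set whose only gene symbol on the array is that of the gene, which gave 10 probe sets for the 6 genes, out of 12993 genes with a name. Of these 10 probe sets, 7 were bright enough to enter the fit over the whole array and 3 were not.

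The study set in vitro matured oocytes (4 arrays) against in vivo matured oocytes (4 arrays) of the rhesus macaque, all at metaphase II, where meiosis pauses in an egg that is ready for sperm. Each array carried the RNA of a pool of 4 oocytes after 2 rounds of amplification. Arrays of a group are named as biological replicates, but the animals, the hormone treatment and the culture medium are not given in the sources used here, so every spread and p-value describes the difference between these pools. Values are linear MAS5 signals, and their 2% trimmed mean was the same on all 8 arrays. Since each array was scaled to the same total, more RNA of a gene per oocyte and a larger share of the pooled RNA cannot be told apart, nor can oocytes be told from other cells carried into a pool.

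Oocyte maturation in the follicle takes place within a sheath of cumulus cells, which exchange signals with the oocyte through secreted ligands, receptors and surface glycoproteins. Proteins bound for the surface or for secretion pass through the endoplasmic reticulum and the Golgi, where sugar chains and lipid anchors are added and trimmed. A fully grown oocyte transcribes little and relies on stored RNA. Stanniocalcin 1, the product of STC1, is a secreted glycoprotein known from fish as a regulator of calcium and in mammals as a local factor in many tissues, the ovary among them. BDKRB1 encodes the bradykinin B1 receptor, a G protein-coupled receptor for kinins that have lost their C-terminal arginine, and NPTX2 encodes a secreted pentraxin known from synapses. LARGE2 encodes a Golgi glycosyltransferase that extends the sugar chain by which dystroglycan binds laminin. MPPE1 encodes a phosphoesterase that trims the glycosylphosphatidylinositol (GPI) anchor of proteins leaving the endoplasmic reticulum, and TMEM26 encodes a protein with several membrane spans.

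On the 8 arrays, between 49.9% and 60.9% of probe sets lay above background, which ran from 15.7 to 27.0 (the 95th percentile, per array, over 59 probe sets for foreign transcripts that had not been added). Of 19 oocyte markers on the array, 17 were above background on every array, and their summed signal was 68775 to 86532 in vitro and 71222 to 104416 in vivo. The ratio of 3' to 5' control signals of EEF1A1, a sign of RNA quality and amplification, ran from 3.59 to 4.91 in vitro and from 2.71 to 12.8 in vivo (exact two-sided permutation p = 0.6 over 70 assignments of the arrays). The other controls had a much stronger 3' excess. For actin the ratio ran from 51.1 to 108 in vitro and from 51.2 to 150 in vivo (permutation p = 0.543). For GAPDH it ran from 27.3 to 47.3 in vitro and from 20.6 to 49.4 in vivo (permutation p = 0.486). Between arrays, log2 signals had Pearson correlations over probe sets of 0.893 to 0.947, and no array repeated another.

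At their brightest probe sets, all 3 secreted and receptor genes were above background on every array of both groups. The signal of each was higher in the pools matured in culture. STC1 had signals of 963.3, 597.4, 394.9 and 640.6 in vitro, against 120.1, 174.0, 93.8 and 104.2 in vivo. The lowest in vitro array was 2.27 times the highest in vivo array, so the groups did not overlap. The means were 649 ± 235 in vitro and 123 ± 35.7 in vivo (SD, n = 4 each), a difference of 2.29 ± 0.27 (SE) on the log2(signal + 8.2) scale.

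BDKRB1 had signals of 836.5, 1873.0, 857.6 and 450.3 in vitro, against 166.5, 60.6, 109.6 and 62.6 in vivo. Its in vitro arrays were the most spread of the 6 genes, with the highest 4.16 times the lowest, and they still lay 2.70-fold or more above every in vivo array. The means were 1004 ± 609 in vitro and 99.8 ± 49.9 in vivo (SD, n = 4 each), and the log2 difference was 3.15 ± 0.39 (SE).

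NPTX2, with a single probe set, had signals of 467.5, 443.1, 563.1 and 995.0 in vitro, against 206.3, 150.5, 194.2 and 107.0 in vivo. In vitro replicate 4 stood above the other 3 in vitro arrays, and the same gene was lowest on in vivo replicate 4. The means were 617 ± 257 in vitro and 164 ± 45.2 in vivo (SD, n = 4 each). The log2 difference of 1.82 ± 0.28 (SE) was the smallest among the brightest probe sets of the 6 genes.

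At their brightest probe sets, the enzymes and the membrane protein gave another pattern, in which the in vivo arrays lay at or close to background. LARGE2, also with a single probe set, had signals of 138.5, 146.4, 105.7 and 112.2 in vitro, against 21.1, 18.8, 10.7 and 19.7 in vivo. All 4 in vitro arrays and 1 in vivo array were above background, and the in vitro values were the most alike of the 6 genes, the highest being 1.39 times the lowest. The means were 126 ± 19.8 in vitro and 17.6 ± 4.68 in vivo (SD, n = 4 each), with a log2 difference of 2.39 ± 0.29 (SE).

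TMEM26 had signals of 295.1, 134.3, 117.6 and 198.7 in vitro, against 5.3, 6.7, 32.9 and 17.3 in vivo. Among the in vivo arrays only replicate 3 lay above its background, and every in vitro array was above its own. The means were 186 ± 80.4 in vitro and 15.6 ± 12.7 in vivo (SD, n = 4 each), and the log2 difference was 3.10 ± 0.40 (SE).

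MPPE1 had signals of 91.7, 150.5, 93.7 and 97.3 in vitro, against 6.6, 2.9, 10.8 and 8.5 in vivo. All 4 in vivo arrays were at or below background, which leaves a bound, taken on signal + 8.2. On that scale MPPE1 was at least 3.74-fold higher in vitro when each in vivo array is set to its background. The measured means were 108 ± 28.2 in vitro and 7.2 ± 3.34 in vivo (SD, n = 4 each). The groups did not overlap.

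**Figure D1:**
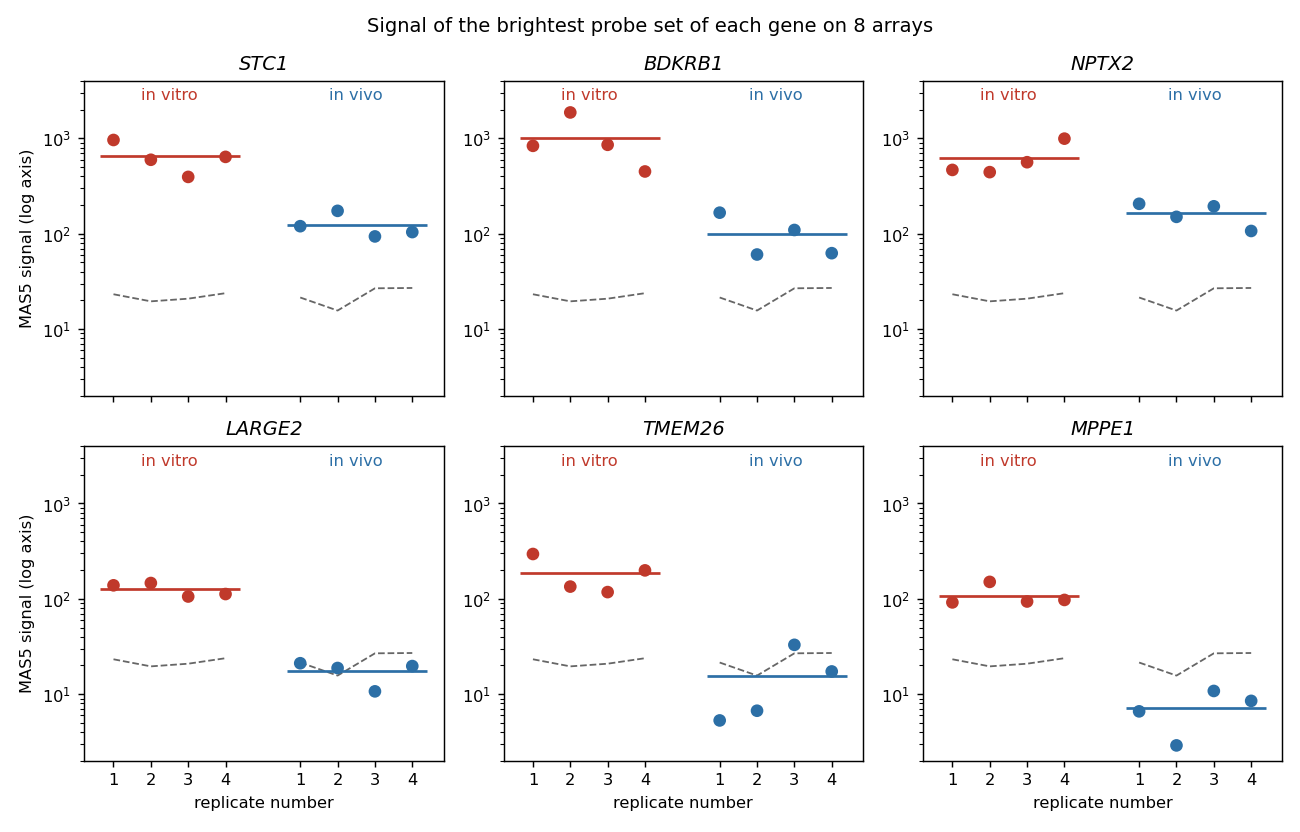
MAS5 signal (log axis) of the brightest probe set of each gene on the 4 in vitro (red, left) and 4 in vivo (blue, right) arrays, by replicate number. Solid lines are group means and dashed lines each array's background. STC1, BDKRB1 and NPTX2 are above background on all 8 arrays, and LARGE2, TMEM26 and MPPE1 are above it on at most 1 in vivo array.

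The 6 brightest probe sets were among the 27 of 26383 tested that passed a limma adjusted p of 0.05 with a higher level in vitro, which is 0.102% of those tested, because that call chose the genes. Lower calls made up 0.0417%. In all, 71.1% of the calls were higher in vitro, 59.6% were after median centring and 45.4% of 97 calls were without in vivo replicate 4. By the size of the difference among all tested, BDKRB1 ranked 3, STC1 20 and NPTX2 44, and no rank is given for the 3 genes that lay near or below background in vivo. In 6 of the 10 probe sets the 4 in vitro arrays lay wholly above the 4 in vivo arrays, as did 3.17% of all tested probe sets, and in 0 of the 10 they lay wholly below, as did 3.11% of all tested.

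The other 4 probe sets of these genes did not show the difference at a comparable size. The second STC1 probe set had 20.7, 25.2, 5.3 and 3.9 in vitro and 3.4, 15.6, 1.1 and 4.2 in vivo. Of these 8 signals 1 exceeded background, on in vitro replicate 2, and the log2 difference was 0.58. The second BDKRB1 probe set had 27.3, 18.0, 3.7 and 2.8 in vitro and 13.3, 2.5, 12.6 and 4.0 in vivo, with 1 in vitro array above background. Its log2 difference of 0.27 became -0.04 with an array left out, and the brighter BDKRB1 probe set has the name suffix that Affymetrix gives to probes shared by several transcripts. Nearly all signals of these 2 dim probe sets lay within background, so a difference of the size seen at the brighter ones was not measurable there.

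The second TMEM26 probe set was brighter in places and overlapped between the groups. It had 14.6, 42.2, 42.0 and 14.4 in vitro, against 58.3, 5.1, 22.1 and 32.1 in vivo, with 2 arrays of each group above background. The log2 difference was 0.07 ± 0.52 (SE), where the brighter TMEM26 probe set had 3.10. The second MPPE1 probe set had 7.8, 36.9, 47.7 and 22.0 in vitro, against 5.7, 35.7, 4.1 and 51.2 in vivo, again with 2 arrays of each group above background. It gave a log2 difference of 0.36, and the brighter MPPE1 probe set also carries the suffix for probes shared by several transcripts. For TMEM26 and MPPE1, then, 1 probe set of 2 carries the difference, and which transcripts each one reads was not analysed here.

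**Figure D2:**
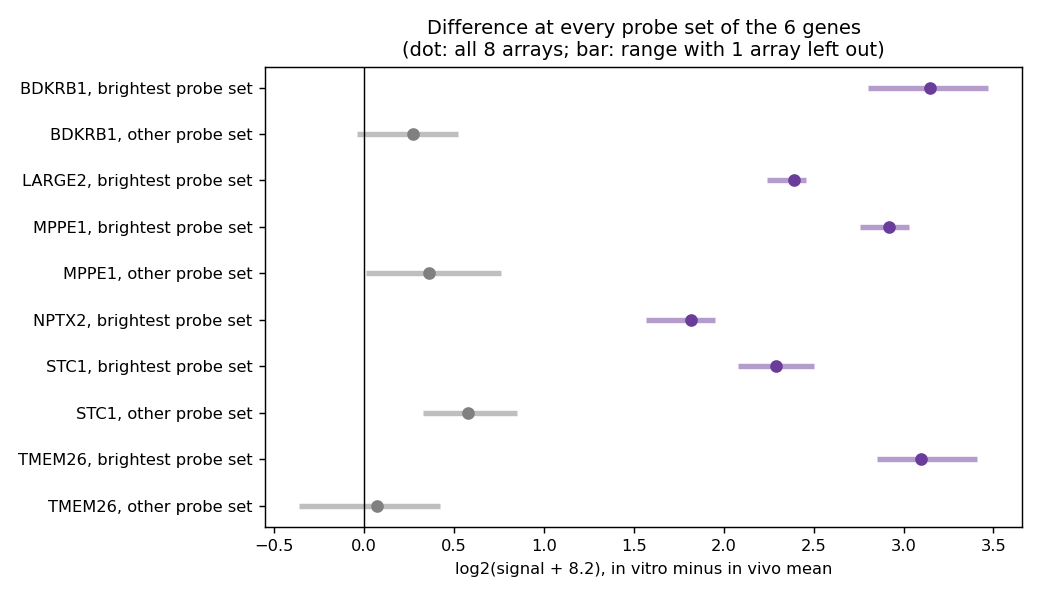
Log2 difference, in vitro minus in vivo, at all 10 probe sets of the 6 genes. Dots use all 8 arrays and bars span the values with each array left out in turn; the brightest probe sets (purple) stay between 1.57 and 3.47, and the other probe sets (grey) between -0.36 and 0.85.

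Within a group, the 6 genes did not all rank the arrays in the same order. STC1 and TMEM26 were highest on in vitro replicate 1, BDKRB1, LARGE2 and MPPE1 on in vitro replicate 2 and NPTX2 on in vitro replicate 4. In vitro replicate 3 was below the group mean for all 6 genes, by 0.28 on average on the log2 scale, and lowest for 3 of them (STC1, LARGE2 and TMEM26). In vivo replicate 1 was highest for BDKRB1, NPTX2 and LARGE2, in vivo replicate 3 for TMEM26 and MPPE1, and in vivo replicate 2 for STC1.

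The largest single deviations belonged to BDKRB1 in vitro. It lay 1.08 above the group mean on in vitro replicate 2 and at -0.96 on in vitro replicate 4. TMEM26 followed in vivo, at 0.94 on in vivo replicate 3. The median log2 SD of the 6 genes was 0.52 in vitro and 0.39 in vivo, against 0.32 in vitro and 0.43 in vivo over all 26383 tested probe sets. Of the 6 genes, 3 lie near background in vivo, where the added 8.2 compresses differences.

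**Figure D3:**
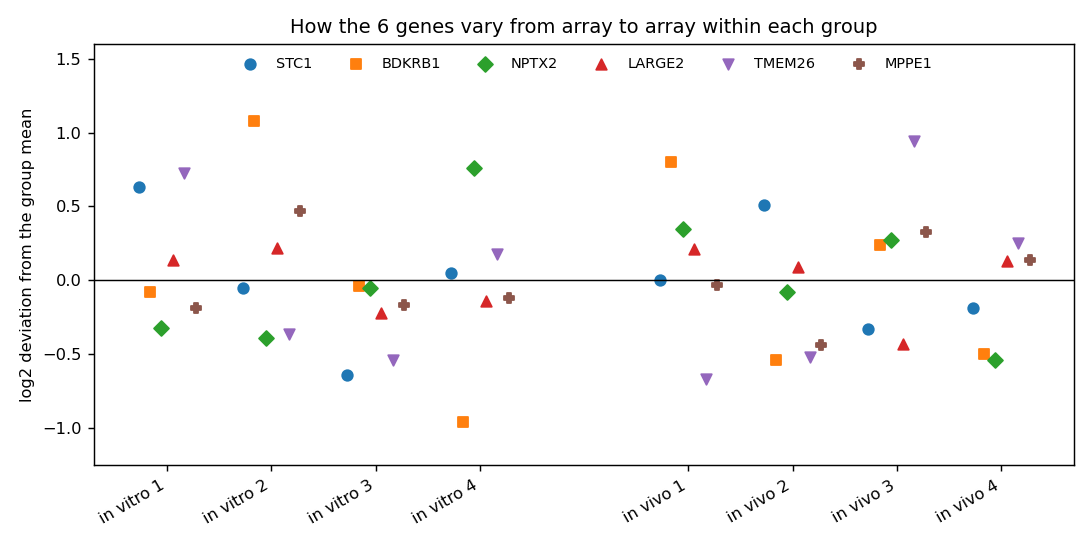
Log2 deviation of each gene from its group mean on the 4 in vitro arrays (left) and the 4 in vivo arrays (right). All 6 genes lie below 0 on in vitro replicate 3, and on the other arrays the genes fall on both sides.

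Profiles over the 8 arrays were compared by the root mean square difference of log2 values after each profile was centred on its own mean. Among the 15 pairs of the 6 genes it ran from 0.33, between STC1 and LARGE2, to 1.07, between BDKRB1 and NPTX2. Outside the 6 genes, the nearest profile to STC1 was that of GAP43, a growth cone protein gene, at 0.39, followed by the phosphatase gene DUSP1 at 0.40 and the imprinted RNA H19 at 0.41. GAP43 had signals of 57.9 ± 20.8 in vitro and 8.12 ± 4.86 in vivo (SD, n = 4 each) and did not pass the threshold (limma adjusted p = 0.0984).

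NPTX2 had the closest match of all, LXN, which encodes the carboxypeptidase inhibitor latexin, at 0.28. LXN was at 130 ± 61.5 in vitro and 39.0 ± 16.1 in vivo (SD, n = 4 each), was highest on in vitro replicate 4 like NPTX2, and did not pass (limma adjusted p = 0.142). PLAGL1, an imprinted zinc finger gene, followed at 0.36, and PTHLH, the gene of the secreted parathyroid hormone-like hormone, at 0.44. PTHLH was at 73.2 ± 32.3 in vitro and 23.5 ± 14.9 in vivo (SD, n = 4 each; limma adjusted p = 0.315).

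For LARGE2 the nearest were H19 at 0.31, the cytochrome gene CYP3A5 at 0.39 and PLAGL1 at 0.41. For BDKRB1 the nearest were CYP3A5 at 0.67, the activin subunit gene INHBA at 0.72 and the cholesterol transport gene STAR at 0.73. TMEM26 was nearest to CTCFL at 0.62, INHBA at 0.75 and a further H19 probe set at 0.77, and MPPE1 to H19 at 0.53, CYP3A5 at 0.63 and CTCFL at 0.64. Of the 11 probe sets named by this measure 8 passed the limma threshold, against 0.144% of all tested probe sets, and the difference between the groups itself enters this measure. Among the 8, PLAGL1 lost its call under 10 of 16 alternatives, CTCFL under 6 of 16, CYP3A5 under 5 of 13, STAR under 4 of 17, DUSP1 under 3 of 17, and INHBA and the dimmer H19 probe set under 1 of 17 each. The brighter H19 probe set kept its call under all 17.

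The genes that work beside these 6 in their pathways were compared next. Over 8 lists, 129 genes other than the 6 were tested, and 0 passed a limma adjusted p of 0.05, against 0.251% of all 9578 genes tested at their brightest probe set. At an unadjusted p under 0.05 there were 9 higher and 8 lower in vitro, together 13.2% of the 129, against 11.8% of all genes. The median log2 difference over the 129 was 0.01, against -0.02 over all genes.

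Around stanniocalcin the list held the insulin-like growth factor (IGF) axis, since stanniocalcins inhibit the protease PAPP-A that cleaves IGF-binding proteins. Of 11 tested genes 0 passed, the median log2 difference was 0.07, and 3 had an unadjusted p under 0.05, all higher in vitro. IGFBP4, the binding protein PAPP-A is best known to cleave, was at 351 ± 201 in vitro and 115 ± 46.7 in vivo (SD, n = 4 each). Its log2 difference was 1.47 ± 0.35 (SE; limma adjusted p = 0.151), and the 2 groups did not overlap. IGFBP6 was at 63.3 ± 10.7 in vitro and 17.3 ± 4.38 in vivo, above background on 1 in vivo array, with a log2 difference of 1.49 and a limma adjusted p of 0.111, the smallest over all 8 lists. IGFBP3, at 2465 ± 455 in vitro and 1848 ± 417 in vivo, had 0.42, and IGFBP2 had -0.81. The stanniocalcin paralogue STC2 and PAPPA itself were not analysed here.

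Around the B1 receptor, 0 of 19 tested genes of the kallikrein-kinin system passed, with a median log2 difference of 0.09 and an unadjusted p under 0.05 for 1 higher and 1 lower gene. The B2 receptor gene BDKRB2, whose product binds intact bradykinin, was at 3.67 ± 2.07 in vitro and 6.7 ± 3.99 in vivo, at or below background on all 8 arrays. PRCP, a carboxypeptidase that cleaves after proline, was at 776 ± 258 in vitro and 358 ± 217 in vivo, with a log2 difference of 1.23 ± 0.35 (SE; limma adjusted p = 0.258), and 0.54 at its dimmer probe set. KLK6, a kallikrein-related protease gene, had -0.51 and MME, the gene of the kinin-degrading protease neprilysin, had -0.33. CPM and CPD encode carboxypeptidases that remove the C-terminal arginine of kinins and so make ligands of the B1 receptor. They were chosen for naming after their values were seen, and had log2 differences of 0.10 and 0.14. The kinin precursor gene KNG1, named likewise after its values were seen, lay below the filter with 23.4 in vitro and 14.4 in vivo.

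Of the pentraxins and their partners 6 genes were tested and 0 passed, with 1 higher at an unadjusted p under 0.05 and a median log2 difference of -0.03. PTX3, a long pentraxin that cumulus cells place in their matrix, was at 22.5 ± 21.4 in vitro and 91.0 ± 155 in vivo, above background on 1 in vitro array and 2 in vivo arrays, with a log2 difference of -0.47 (limma adjusted p = 0.89). TNFAIP6, which encodes a hyaluronan-binding partner of PTX3, was at 497 ± 79.2 in vitro and 545 ± 118 in vivo, a log2 difference of -0.12. The complement gene C1QA had 0.92 (limma adjusted p = 0.462), and NPTX1 and NPTXR were not analysed here.

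Around LARGE2, 0 of 13 tested genes of dystroglycan glycosylation passed, with a median log2 difference of 0.14 and an unadjusted p under 0.05 for 2 genes, both higher in vitro. B3GALNT2, which adds N-acetylgalactosamine to the chain that LARGE2 extends, was at 1607 ± 136 in vitro and 1118 ± 163 in vivo, a log2 difference of 0.53 ± 0.17 (SE; limma adjusted p = 0.314), with 0.25 and 0.14 at its dimmer probe sets. GMPPB, which makes GDP-mannose, was at 107 ± 20.1 in vitro and 58.4 ± 17.4 in vivo, with 0.81 ± 0.28 (SE; limma adjusted p = 0.348). The groups did not overlap for either gene at these probe sets. POMK, a kinase acting on the same chain, had 0.24, 0.38 and 0.13 at its 3 probe sets.

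Dystroglycan itself, from DAG1, was at 1558 ± 267 in vitro and 1386 ± 241 in vivo at its brightest probe set (SD, n = 4 each), with a log2 difference of 0.17 and with 0.33 and -0.13 at the other 2. Of 13 tested genes of the dystroglycan complex and its ligands 0 passed, and 1 had an unadjusted p under 0.05 with a lower level in vitro. That was HSPG2, the gene of the ligand perlecan, at 30.9 ± 12.7 in vitro and 89.7 ± 42.6 in vivo (log2 difference -1.27, limma adjusted p = 0.277). The sarcoglycan gene SGCD had -1.10 and the laminin gene LAMA1 had -0.58.

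Around MPPE1, 0 of 25 tested genes of GPI anchor synthesis, remodelling and export passed, and their median log2 difference was -0.24, with 9 above 0. At an unadjusted p under 0.05 there were 0 higher and 3 lower in vitro, where 4.75% of all genes were higher and 7.07% lower. The lower ones were PIGK, PIGC and PGAP6. PIGK, the catalytic subunit of the transamidase that attaches the anchor, was at 102 ± 17.0 in vitro and 194 ± 8.17 in vivo (log2 difference -0.88 ± 0.22 SE; limma adjusted p = 0.192), and the groups did not overlap. The other tested PIGK probe set had -0.56. PIGC, of the first step of anchor synthesis, had -0.87, and -0.41 at its dimmer probe set. PGAP6 had -0.59, and 0.13 at its dimmer probe set. The enzymes nearest to MPPE1 in the pathway did not pass either: PGAP1, which removes an acyl chain from the anchor, had 0.14, PGAP2 had 0.16 and PGAP3 had 0.78.

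Among proteins that carry a GPI anchor, 0 of 29 tested genes passed, with a median log2 difference of -0.03 and an unadjusted p under 0.05 for 1 higher and 3 lower genes. BST2, the gene of the antiviral protein tetherin, was at 487 ± 159 in vitro and 230 ± 69.9 in vivo, with log2 differences of 1.06 and 0.92 at its 2 probe sets. In the other direction MELTF, which encodes an iron-binding transferrin relative, was at 148 ± 17.8 in vitro and 371 ± 203 in vivo, a log2 difference of -1.16, and its dimmer probe set had 0.36. TFPI, the gene of a coagulation inhibitor, had -1.52. The glypican gene GPC6 had -0.70, and -0.16 at its dimmer probe set. The oocyte's sperm receptor gene IZUMO1R was not analysed here.

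**Figure D4:**
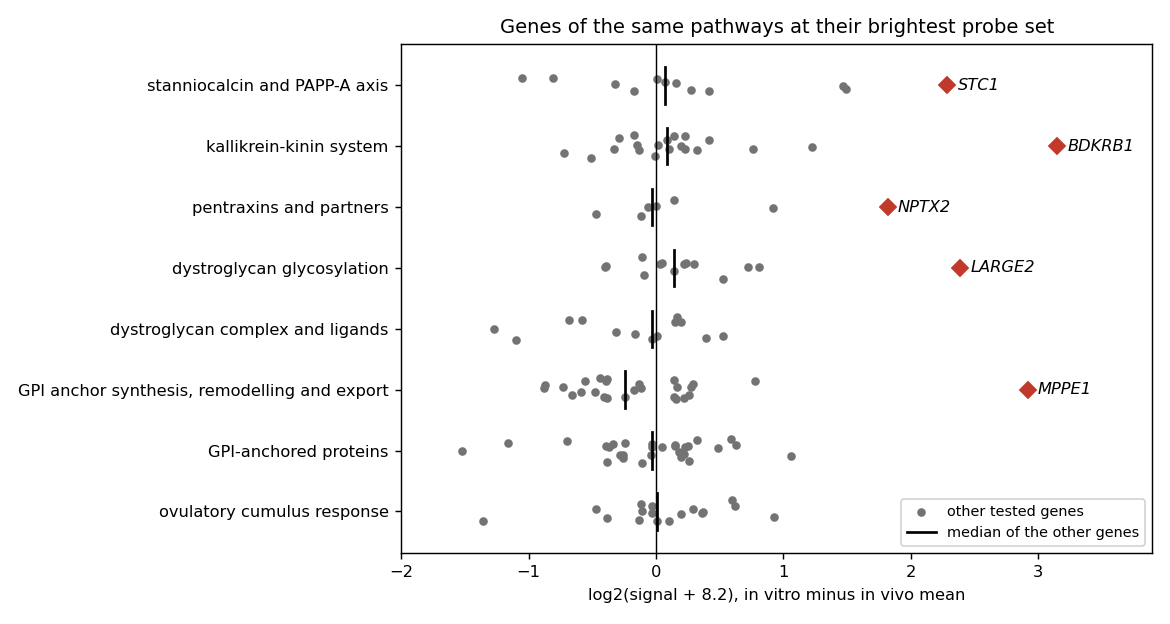
Log2 difference, in vitro minus in vivo, of the tested genes of 8 pathway lists at their brightest probe sets (grey dots, with the median as a black bar) and, for the 5 lists that have one, of the gene among the 6 that the list was built around (red diamond). No grey dot passed a limma adjusted p of 0.05, and list medians lie between -0.24 and 0.14.

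Since STC1, INHBA and STAR are also made by granulosa and cumulus cells, markers of cells other than the oocyte were set beside the 6 genes. The summed signal of 25 granulosa and cumulus markers was 32557 to 44102 in vitro and 34260 to 39582 in vivo, a log2 difference of 0.07 (exact two-sided permutation p = 0.6 over 70 assignments, where 0.0286 is the smallest possible). This linear sum mostly follows its brightest genes. SERPINE2 alone had means of 12488 in vitro and 13703 in vivo, within mean sums of 37745 and 35679. A change in dimmer markers would show little in it. Of 23 tested markers 2 were higher in vitro past the threshold (INHBA and STAR), 0 were lower and 21 did not pass. Over all 9578 tested genes 16 were higher and 8 lower past it. At an unadjusted p under 0.05 there were 6 higher and 1 lower among the 23, where 4.75% of all genes were higher and 7.07% lower. In level, 17 of the 25 were above background on all 8 arrays. INHBA was at 1483 ± 751 in vitro and 165 ± 72.4 in vivo (SD, n = 4 each; limma adjusted p = 0.00226), and STAR at 1181 ± 490 in vitro and 191 ± 98.9 in vivo (limma adjusted p = 0.00861). STAR did not pass without in vitro replicate 1, 2 or 3 (log2 differences of 2.40, 2.59 and 2.45, against 2.60 with all arrays), and neither gene passed without the intensity trend. HSD3B2 and EFEMP1 had log2 differences of 2.28 and 1.96 without passing (limma adjusted p = 0.214 and 0.249), and EFEMP1 passed at 2.58 without in vivo replicate 1. ITIH2 went the other way, at 19.1 ± 11.7 in vitro and 50.6 ± 8.73 in vivo (log2 difference -1.20, limma adjusted p = 0.322). It was above background on 2 in vitro arrays. The median log2 difference over the 23 tested markers was 0.03, with 14 above 0. The summed marker level was highest on in vitro replicate 2, at 44102, where BDKRB1, LARGE2 and MPPE1 were highest too, and was 33122 on in vitro replicate 3, where all 6 genes lay below their group mean. It was lowest on in vitro replicate 4, at 32557, where NPTX2 was highest and STC1 and TMEM26 lay above their group means by 0.05 and 0.18 on the log2 scale. The oocyte marker sum had the same order over the in vitro arrays, at 80659, 86532, 72412 and 68775 on replicates 1 to 4. The part of granulosa and cumulus cells in the level of the 6 genes was not tested.

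A further list held cumulus genes that answer the ovulatory signal. Of 17 tested genes 0 passed, against 0.251% of all genes, 1 was higher at an unadjusted p under 0.05, against 4.75% of all genes, and the median log2 difference was 0.01. AREG, an epidermal growth factor-like ligand induced by luteinizing hormone, was at 57.0 ± 77.2 in vitro and 133 ± 114 in vivo (log2 difference -1.36, limma adjusted p = 0.57). GREM1, which encodes a secreted antagonist of bone morphogenetic proteins, was at 42.1 ± 10.6 in vitro and 19.4 ± 9.58 in vivo (0.93, limma adjusted p = 0.45).

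Markers of theca, stroma and endothelium summed to 1604 to 2172 in vitro and 1584 to 2257 in vivo over 14 genes (log2 difference -0.11, exact permutation p = 0.486), and CYP17A1 and KDR were at or below background throughout. Among 9 tested, 0 passed, with COL6A1 at 1.77, TAGLN at 1.82 and DCN at -1.85. The other tested DCN probe sets had -0.11, 0.55 and 0.75, and the dimmer TAGLN probe set had 0.75. Blood and immune markers summed to 344 to 484 in vitro and 483 to 629 in vivo over 15 genes, a log2 difference of -0.42 (exact permutation p = 0.0571), and 0 of 9 tested passed. Of these 15 genes 2 were above background on every array, so the sum includes many signals at or below background. Oocyte markers summed to a log2 difference of -0.09 (exact permutation p = 0.571), and 0 of 19 passed, with NLRP5 at -1.03 and NLRP13 at 0.45.

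**Figure D5:**
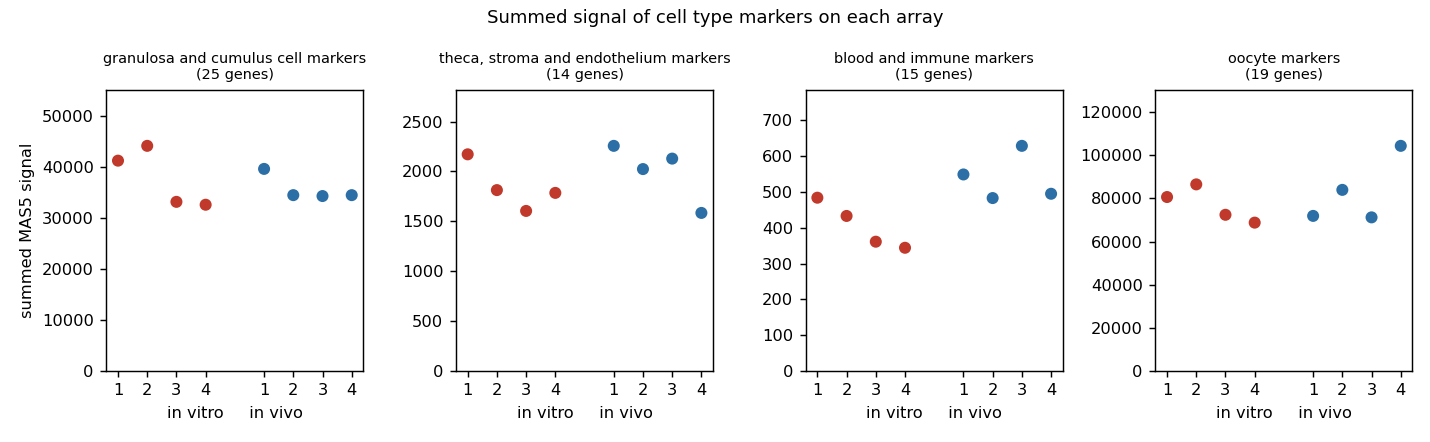
Summed MAS5 signal of 4 lists of cell type markers on each in vitro (red, left) and in vivo (blue, right) array, by replicate number, on axes that start at 0. The granulosa and cumulus sum overlaps between the groups, at 32557 to 44102 in vitro and 34260 to 39582 in vivo.

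Genes that lie next to the 6 on their chromosomes were taken as 2 named protein-coding genes on either side, in the order RefSeq gives for the assembly T2T-MMU8v2.0. Of 24 neighbours 13 were tested, and 0 passed with a higher level in vitro. Over all 9578 tested genes 16 passed with a higher and 8 with a lower level, so few calls could fall among 13 genes. CDK1, which encodes the kinase that drives entry into M phase and is the second gene on one side of TMEM26, was the only one of the 13 to pass and was lower in vitro. It had 104.4, 134.5, 44.8 and 130.9 in vitro, against 258.0, 649.6, 725.2 and 331.4 in vivo (log2 difference -2.13 ± 0.37 SE; limma adjusted p = 0.0359). The call was lost without any 1 of the 4 in vitro arrays and without in vivo replicate 2 or 3, where the log2 difference ran from -2.28 to -1.81. It was also lost after quantile normalization (-2.09), with a pseudocount of 1 (-2.22) and without the intensity trend (-2.13). RHOBTB1, which lies between TMEM26 and CDK1, had -0.77 and overlapped between the groups. The NPTX2 neighbour BAIAP2L1, which encodes a protein that bends membranes, was at 648 ± 88.2 in vitro and 2022 ± 1240 in vivo and did not pass (log2 difference -1.47, limma adjusted p = 0.0767), though it did without in vivo replicate 1, 3 or 4, at -1.69, -1.10 and -1.59. Next to LARGE2, CREB3L1, PHF21A and PEX16 had log2 differences of -0.02, -0.03 and -0.04. Next to BDKRB1, ATG2B had 0.02, and next to MPPE1, IMPA2 had 0.29, the highest of the 13.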

How the data were processed

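Single-colour Affymetrix arrays of the rhesus macaque were hybridised with biotin-labelled cRNA, per the labels' protocols. The authors deposited linear intensity values, made with MAS5 per the submitters' processing notes (version not given there); subtracting background probe set by probe set makes dim values noisy. Of 52766 probe sets that are not controls, 24956 had 1 symbol in the platform annotation, and 23265 had one that is not a LOC number. Signals were taken as log2(signal + 8.2), 8.2 being the 25th percentile of all signals, and probe sets above the 50th percentile of mean log2 signal were tested (26383). The contrast, in vitro minus in vivo, was fitted in limma 3.58.1 under R 4.3.3 (lmFit, eBayes with an intensity trend, Benjamini-Hochberg over all tested probe sets). SEs come from that fit. On simulated data with 26383 probe sets, the fit recovered 22% of the 50 given a 2-fold change and 80% of the 50 given a 4-fold change. Summed marker levels were compared by exact permutation tests. Genes were named by probe set (the 6), by up to 4 smallest unadjusted p-values per list plus close partners, and by the 3 nearest profiles; neighbours were added later. The 6 genes and all lists were chosen with earlier results of these data known. Pseudocounts, filters, normalization, variance models, a replicate block and left-out arrays were varied. The number of arrays limits the precision. Detection calls were not used here.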

Additional observations from a re-analysis of the deposited data

Results flagged for a closer look

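The MPPE1 signal of 150.5 on in vitro replicate 2 stood apart from the other 3 in vitro arrays, which had 91.7, 93.7 and 97.3. The summed granulosa and cumulus marker signal of 39582 on in vivo replicate 1 stood apart from the other 3 in vivo arrays, at 34438, 34260 and 34437. In each case the gap to the nearest array, as a share of the range of the group, was above the 95% critical value of Dixon's test. Of 28 groups of 4 arrays checked 2 were beyond it, and about 1 in 20 would be by chance. Without in vitro replicate 2, MPPE1 was at least 3.35-fold higher in vitro on signal + 8.2, where the bound with all arrays was 3.74.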

How the results depend on the processing

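The number of called probe sets, 38, depended on single arrays and on the variance model. It ran from 18 to 97 with 1 array left out, with 18 when in vitro replicate 1 was dropped, 21 for in vitro replicate 2 or 3, 71 for in vivo replicate 1 and 97 for in vivo replicate 4. It was 10 without the intensity trend and 88 with array weights, and no pathway gene passed in any of these fits or in the others run. All 6 brightest probe sets were called in every fit except with the 75th percentile filter, where 3 were not tested, without the intensity trend (4 called), and with in vitro replicate 3 or in vivo replicate 2 dropped (5 called each). That call had chosen the genes on these same arrays, so its survival and the sign of the differences below are a description only. At the brightest probe sets of the 6 genes all 78 values under the alternatives stayed positive, and 73 moved by less than the spread between arrays. The other 5 came from the pseudocount, on which low signals depend by construction: with 1 in place of 8.2, the log2 difference was 2.80 for LARGE2 and 3.82 for MPPE1, and with the median signal of 27.7 it was 1.76 for LARGE2, 2.28 for TMEM26 and 1.95 for MPPE1. With 1 array left out the difference ran from 2.08 to 2.50 for STC1, 2.80 to 3.47 for BDKRB1, 1.57 to 1.95 for NPTX2, 2.24 to 2.46 for LARGE2, 2.85 to 3.41 for TMEM26 and 2.76 to 3.03 for MPPE1. The blood and immune marker sum, -0.42, ran from -0.51 to -0.34 with 1 array left out and passed once in vitro replicate 1 was dropped, and the oocyte marker sum, -0.09, passed at -0.13 after quantile normalization; the cause was not tested. Same-numbered arrays did not deviate together (correlations of -0.047 to 0.016). With 4 arrays per group and noise between pools, this cannot exclude that the numbers pair the arrays. A fit with the replicate number as a block called 43 probe sets. Under that block HSD3B2 (2.28) and EFEMP1 (1.96) passed, and CDK1 (-2.13) and PLAGL1 (1.82) did not. Over the other named genes 1183 of 1229 values stayed on the same side of the threshold.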
